A study of Mus musculus with 3 samples.

Results

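Cluster 8 was a group of 185 cells, out of 4668, in a pool of cells from 4 mouse brains. Its members were taken from the authors' own clustering, as every cell that carries the cluster number 8 in the deposited cell table. The study used CITE-seq, which reads mRNA and antibody-bound barcodes from the same droplet and so measures genes and surface proteins of a cell together. Female C57BL/6 mice aged 2 to 3 months either carried E0771 brain metastases, from a mammary carcinoma line of the mouse that was injected into the carotid artery about 2 weeks earlier, or were naive animals without metastases. Brains were perfused, digested with papain and passed over a Percoll gradient that enriches immune cells, then stained with 6 antibodies and with a separate hashtag antibody per brain, and loaded as 1 pool on the 10x Genomics 3' assay. The assignment of hashtags to naive or metastatic animals is not given in the sources used here, so each brain is named by its hashtag and no condition was compared.

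Several cell types of the brain border matter for reading this cluster. Astrocytes take up glutamate and support neurons, meningeal fibroblasts lay down the collagen matrix that wraps the brain, and the choroid plexus epithelium makes cerebrospinal fluid and secretes transthyretin, the product of Ttr. Metallothioneins are small cysteine-rich proteins that bind zinc and copper; Mt1 and Mt2 are induced in many cell types by metals and glucocorticoids, and Mt3 is enriched in the brain. Mt2 is the gene given as the marker of cluster 8, and its level is set against the other clusters below.

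The hashtag barcodes are shown because every comparison between brains rests on them. Each is 15 bases long, and the 6 pairs differ at 11 to 13 of the 15 positions.
HTO1: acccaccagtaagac
HTO2: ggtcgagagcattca
HTO3: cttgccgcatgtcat
HTO4: aaagcattcttcacg

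The promoters of the 3 metallothionein genes are shown because the results on subsets and brains below turn on these genes. They come from RefSeq on GRCm38.p6, run from 250 bases before to 50 bases after the gene start, and lie on the plus strand of chromosome 8, Mt1 at chr8:94178839-94179138, Mt2 at chr8:94172368-94172667 and Mt3 at chr8:94152357-94152656. Capitals mark TGCACNC or TGCGCNC on either strand, the core letters of the metal response element.
Mt1: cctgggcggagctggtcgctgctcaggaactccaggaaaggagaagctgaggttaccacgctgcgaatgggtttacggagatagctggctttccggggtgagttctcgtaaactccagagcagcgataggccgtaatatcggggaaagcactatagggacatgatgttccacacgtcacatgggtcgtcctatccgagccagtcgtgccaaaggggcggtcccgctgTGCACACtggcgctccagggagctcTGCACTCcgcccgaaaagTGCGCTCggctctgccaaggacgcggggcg
Mt2: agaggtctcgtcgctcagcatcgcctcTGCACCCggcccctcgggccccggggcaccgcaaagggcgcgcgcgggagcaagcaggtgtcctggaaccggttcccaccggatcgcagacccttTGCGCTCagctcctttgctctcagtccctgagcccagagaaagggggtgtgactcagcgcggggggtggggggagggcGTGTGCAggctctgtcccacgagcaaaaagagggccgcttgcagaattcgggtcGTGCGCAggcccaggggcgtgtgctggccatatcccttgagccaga
Mt3: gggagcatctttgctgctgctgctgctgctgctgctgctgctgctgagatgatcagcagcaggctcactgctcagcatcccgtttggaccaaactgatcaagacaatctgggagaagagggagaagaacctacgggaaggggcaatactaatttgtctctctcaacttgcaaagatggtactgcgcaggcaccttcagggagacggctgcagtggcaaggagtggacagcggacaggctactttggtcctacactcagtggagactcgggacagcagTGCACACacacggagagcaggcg
The Mt1 window held 3 matches, the Mt2 window 4 and the Mt3 window 1. Of 32851 promoter windows of the same length, 25.7% held at least 1 match, 1.97% at least 3 and 0.518% at least 4. A match describes letters and is not a measured binding site.

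Cells of cluster 8 were shallow outside the hashtag 4 brain. Per cell, the median UMI count was 3142 with hashtag 1, 3438 with hashtag 2, 3449 with hashtag 3 and 10276 with hashtag 4 in cluster 8, against 4594, 5732, 12665 and 12815 in the other cells of the same brains. The cluster held 995720 UMIs in all. A median of 70.1%, 77.0%, 81.5% and 90.0% of a cell's hashtag counts came from its own hashtag in the 4 brains, so the hashtag 1 cells were the least cleanly assigned. Levels below are means over cells of UMIs per 10000 UMIs of the cell. Each brain is 1 animal, all came from 1 pool, and intervals cover counting error only.

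The cluster took the largest share of cells in the hashtag 1 brain. It made up 91 of 844 cells with hashtag 1, or 10.8% (exact binomial 95% interval 8.77 to 13.1%). The share was 17 of 410 cells with hashtag 2, or 4.15% (2.43 to 6.56%), 31 of 1385 with hashtag 3, or 2.24% (1.53 to 3.16%), and 46 of 2029 with hashtag 4, or 2.27% (1.66 to 3.01%). The interval for hashtag 1 did not meet those of the other brains, whereas the intervals of hashtags 2, 3 and 4 overlapped. When only cells with a dominant hashtag were kept (at least 80% of hashtag counts), the share was 31 of 398 cells with hashtag 1, or 7.79% (5.35 to 10.9%), 7 of 154 with hashtag 2, or 4.55% (1.85 to 9.14%), 1.66% with hashtag 3 (0.952 to 2.68%) and 1.86% with hashtag 4 (1.26 to 2.64%). The intervals of hashtags 1 and 2 then overlapped, and that of hashtag 1 still lay above those of hashtags 3 and 4.

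Clustering the 185 cells again parted them into 4 subsets with very different genes, so the cluster was not 1 cell type. A subset of 90 cells was rich in Ttr, one of 39 was led by astrocyte genes such as Aldoc, one of 28 was led by Mgp and matrix genes, and one of 28 carried Esx1 and Rhox5. Each subset is called here by 1 of its leading genes. The Ttr subset held 65 of the 91 cluster 8 cells with hashtag 1, or 71.4%, against 35.3%, 32.3% and 19.6% with hashtags 2, 3 and 4. It made up 7.70% of all cells with hashtag 1, and 1.46%, 0.722% and 0.444% with hashtags 2, 3 and 4. The Mgp subset was 13 of 31 cells with hashtag 3, or 41.9%, and the Esx1 subset was 24 of 46 with hashtag 4, or 52.2%, while the Esx1 subset had 0 of 17 cells with hashtag 2 (exact 95% upper limit 19.5%). The mixture of subsets thus differed between brains, and its part in the levels of the whole cluster was not tested.

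**Figure D1:**
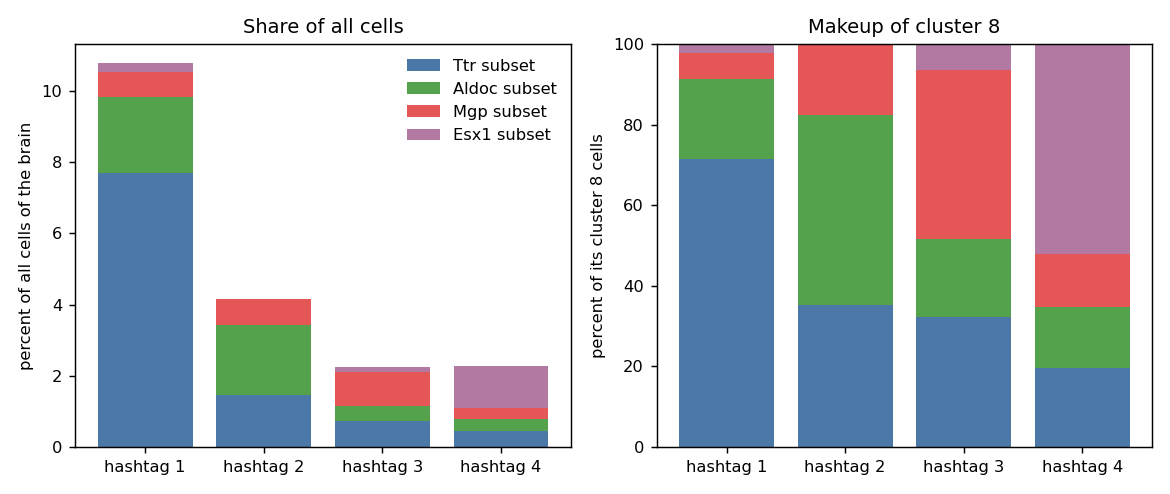
The 4 subsets of cluster 8 by hashtag class, as stacked bars from 0, in percent of all cells of the brain (left) and in percent of its cluster 8 cells (right). Cluster 8 takes its highest share of a brain in hashtag 1, where most of it is Ttr subset (65 of 91 cells), the Mgp subset takes its highest share of cluster 8 in hashtag 3 (13 cells), and more than any other subset the Esx1 subset fills hashtag 4 (24 of 46).

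The subsets also differed in depth. Median UMI counts were 3143 in the Ttr subset, 3361 in the Aldoc subset, 4108.5 in the Mgp subset and 15746 in the Esx1 subset, with median gene numbers of 1036, 1410, 1507 and 3507. Its part in the composition of the subsets was not tested.

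Within every brain, 6 of 10 tested astrocyte genes and the matrix genes Mgp and Dcn were higher in cluster 8 than in the rest of the pool, whereas none of the 19 tested genes of the collagen and matrix list was (list median 0.29). A gene was counted as higher or lower when its log2 difference of mean levels, with 0.1 added to each, was at least 1 in every brain. Of 9607 genes, 37 were higher (0.385%) and 17 lower (0.177%). The authors made the cluster from these same cells, so the counts describe it and carry no test. They depend on the setting: with a pseudocount of 1 in place of 0.1, 3 genes were higher and 2 lower, and without the hashtag 1 brain 81 and 26, without hashtag 2 69 and 33, without hashtag 3 46 and 38 and without hashtag 4 49 and 81. The largest difference was that of Mgp, matrix Gla protein, an inhibitor of calcification. Its level was 5.63, 15.2, 56.6 and 11.5 in cluster 8 with hashtags 1, 2, 3 and 4, against 1.49, 1.24, 0.710 and 0.530 in the other cells, a mean log2 difference of 3.92 ± 1.77 (SD over 4 brains). The cluster 8 levels lay above those of the other cells in all 4 brains, with hashtag 3 highest. Mgp was seen in 34.0% of cluster 8 cells (median depth 3442 UMIs) and in 31.5% of the other cells (9986 UMIs). Dcn, the collagen-binding proteoglycan decorin, was at 1.27, 2.61, 2.72 and 3.41 in cluster 8 and at 0.0672, 0.196, 0.0759 and 0.0689 in the other cells, a difference of 3.65 ± 0.64.

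Of the 10 tested members of the astrocyte list, 6 were higher (Aqp4, Aldoc, Slc1a2, Gja1, S100b and Slc4a4), and the list's median log2 difference was 2.11, against -0.21 over all genes tested. Aldoc, the brain form of fructose-bisphosphate aldolase, was at 1.33, 4.58, 0.882 and 2.41 in cluster 8 with hashtags 1, 2, 3 and 4 and at 0.198, 0.401, 0.224 and 0.157 in the other cells, a log2 difference of 2.59 ± 0.81. Slc1a2, the main astrocytic glutamate transporter, was at 0.888, 1.91, 0.341 and 1.17 in cluster 8 and at 0.128, 0.166, 0.0982 and 0.0498 in the other cells (2.32 ± 0.88). Both were lowest in the hashtag 3 brain within cluster 8, and both were still above the other cells there. S100b, a calcium-binding protein of astrocytes, differed by 2.91 ± 0.64. Gja1, the gap junction protein connexin, was at 0.634, 0.830, 2.59 and 1.71 in cluster 8 and at 0.0996, 0.148, 0.255 and 0.220 in the other cells. Other genes of this direction were Plpp3 (2.82), a lipid phosphatase, Gpr37l1 (2.70), an astrocyte receptor, Igfbp5 (2.79), which binds insulin-like growth factors, Serping1 (2.63), the C1 inhibitor of complement, and Apod (2.47), a lipid carrier. The GABA transporter Slc6a11 (1.71) and the matrix proteoglycan brevican, Bcan (2.03), were also higher in all 4 brains. Of the 8 tested fibroblast and meningeal genes only Dcn passed in every brain, with a list median of 1.75.

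Markers of neutrophils, endothelium and microglia were among the genes that were lower than in the other cells, which include the clusters richest in these lists. Of the neutrophil list, 3 of 6 tested genes were lower, with a list median of -2.32. S100a9, a calcium-binding protein of neutrophils, was at 1.75, 1.61, 1.43 and 1.37 in cluster 8, against 71.1, 5.92, 5.03 and 4.02 in the other cells with hashtags 1, 2, 3 and 4. The cluster 8 levels barely varied between brains, whereas the other cells did, and S100a8 was seen in 69.7% of cluster 8 cells. Cluster 0, which is not an immune cluster by its CD45 tag, had a summed neutrophil list of 5.32 per 10000, against 7.16 in cluster 8, so levels of this size occur in cells that should lack these genes. The endothelial list had 2 of 7 genes lower (Ly6c1 and Esam), and the microglial list 1 of 7 (Csf1r, the receptor of colony-stimulating factor 1). None of the 8 choroid plexus genes was counted in either direction, with a median of -0.16. The 27 gene lists on pathways, among them metallothioneins (7 tested, median 0.57), immediate early genes (21 tested, median -0.82) and nuclear oxidative phosphorylation (24 tested, median 0.48), had 0 genes counted either way. Against clusters 9 and 1, the most alike by mean profile, 0 tested genes of the neutrophil and microglial lists were lower. Of the endothelial list 1 of 7 was lower against cluster 9 (Esam) and 0 of 6 against cluster 1.

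By its mean profile over 7594 genes, cluster 8 was most like cluster 9 (Pearson r = 0.922) and cluster 1 (r = 0.915). All clusters come from the same pool, and the part of free RNA in these profiles was not tested. Of 9330 genes compared with cluster 9, 33 were higher (0.354%) and 62 lower (0.665%). The lower ones were led by contractile genes of smooth muscle, with 5 of 8 pericyte and smooth muscle markers lower (Acta2, Tagln, Myh11, Rgs5 and Cspg4). Tagln, the actin-binding transgelin, was at 0.474, 3.08, 0.292 and 0.221 in cluster 8 and at 19.3, 18.2, 19.2 and 11.4 in cluster 9 with hashtags 1, 2, 3 and 4, a log2 difference of -4.60 ± 1.40. Apod was higher in cluster 8 by 3.04 ± 0.58. Of 10 astrocyte genes tested, 4 were higher (Gja1, S100b, Slc4a4 and Gjb6), with a list median of 2.08. Aldoc, Slc1a2 and Aqp4 were not counted as higher against cluster 9. With a pseudocount of 1 the counts were 4 higher and 11 lower.

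Against cluster 1, 54 of 8888 genes were higher (0.608%) and 79 lower (0.889%). Cluster 1 is rich in choroid plexus genes, and 5 of 8 genes of that list were lower in cluster 8 (Enpp2, Kl, Kcnj13, Otx2 and Prlr). Htr2c, a serotonin receptor of the choroid plexus, was at 1.21, 0.884, 0.486 and 0.675 in cluster 8, against 5.37, 5.35, 2.73 and 3.37 in cluster 1, a difference of -2.24 ± 0.17 that was nearly the same in each brain. Prlr, the prolactin receptor, differed by -2.29 ± 0.13. Of 10 astrocyte genes tested, 8 were higher. Mt1 and Mt2 were also higher in all 4 brains, by 2.44 ± 1.20 and 2.83 ± 1.55 on the log2 scale. With a pseudocount of 1 the counts were 6 higher and 11 lower, and without hashtag 1 156 genes were higher.

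**Figure D2:**
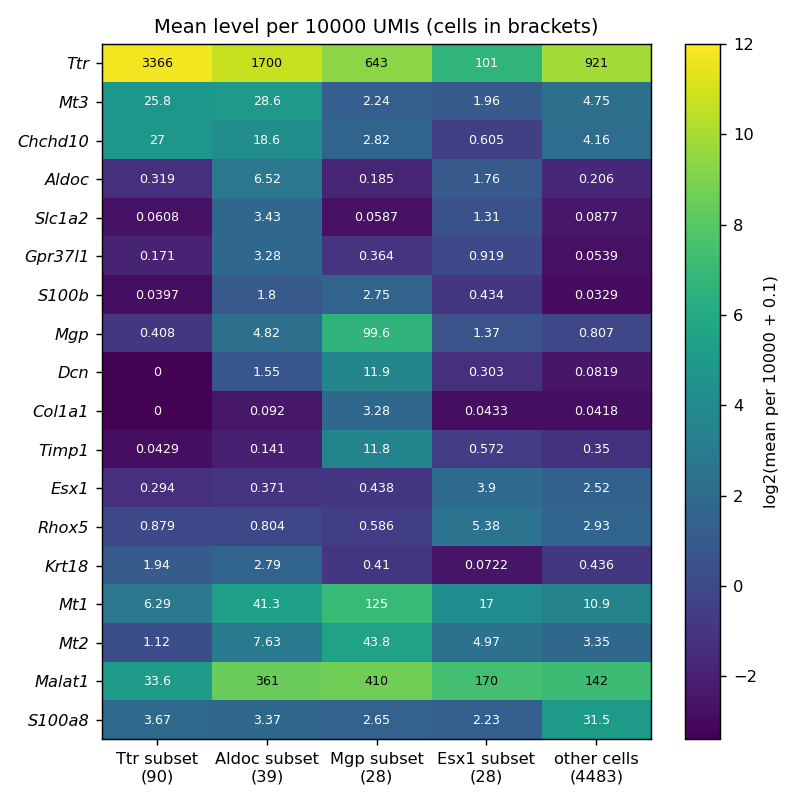
Mean level (UMIs per 10000, printed in each field, log2 colour scale) of leading genes in the 4 subsets of cluster 8 and in all other cells. Ttr is 3366 in the Ttr subset, Mgp 99.6 in the Mgp subset and Aldoc 6.52 in the Aldoc subset, while Esx1 and Rhox5 stand out within cluster 8 in the Esx1 subset.

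The Ttr subset had as much Ttr as cluster 1, at a lower depth and with less of the nuclear RNAs Xist and Malat1. Ttr was at 3412, 3308, 2944 and 3544 in its cells with hashtags 1, 2, 3 and 4, so the brains differed little. Ttr was seen in 100% of all cells of the pool, and its level in the CD45-tagged cluster 3 was 220.7, so a level of that size occurs in cells that should lack Ttr. The summed choroid plexus list was 3439 in the subset and 3337 in cluster 1. Its first 5 leading genes against the rest of cluster 8 were Mycbp, Kcne2, Cox8b, Ins2 and Mcee. None of them is on the choroid list, which holds only 8 genes, so absence from it does not make a gene foreign to the choroid plexus. The listed choroid markers Ttr and Kcnj13 followed at ranks 13 and 14. Ttr was at 3366, against 917.5 in the rest of cluster 8, and Kcnj13 at 3.00, against 0.779. The subset's median UMI count of 3143 was under 1 in 3 of the pool's 9472, and it was given no cell type name.

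Set beside cluster 1 in the brains with at least 10 cells of both (65 and 291 cells with hashtag 1, 10 and 181 with hashtag 3), 53 of 8370 genes were higher (0.633%) and 814 lower (9.73%), with a median log2 difference of -0.48 over all genes. With a pseudocount of 1 they were 6 and 23, and with hashtag 1 alone 179 and 1467, with hashtag 3 alone 1321 and 3232. Median UMI counts were 3124 and 2908.5 in the subset and 6100 and 8795 in cluster 1, and the median mitochondrial share was 3.77% and 3.82% against 8.97% and 7.01%. Ttr itself did not part the groups, at 3412 and 2944 in the subset and 3167 and 3374 in cluster 1. Xist, the long RNA that coats the inactive X chromosome in nuclei of female cells, was at 0.695 and 0.367 in the subset and at 9.36 and 6.51 in cluster 1, a log2 difference of -3.70 ± 0.18 (SD, n = 2 brains). The nuclear RNA Malat1 was at 29.0 and 27.3 in the subset and at 74.5 and 62.5 in cluster 1 (-1.27 ± 0.12). Of 6 nuclear and long non-coding RNAs, 4 were lower (Malat1, Neat1, Xist and Kcnq1ot1). In the same comparison 2 of 8 choroid genes were lower (Enpp2 and Prlr), and 4 of 13 mitochondrially encoded genes were lower (mt-Nd2, mt-Nd5, mt-Co2 and mt-Atp6). Enpp2, the lysophospholipase autotaxin, was at 52.8 and 53.2 in the subset and at 145.0 and 106.7 in cluster 1.

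Some genes of energy metabolism were higher in the subset. Cox7b, a subunit of cytochrome oxidase, was at 14.3 and 15.4 in the subset and at 5.94 and 4.97 in cluster 1 (1.43 ± 0.25), and the median over 24 nuclear oxidative phosphorylation genes was 0.75, with Cox7b alone counted as higher. Aldoa, a glycolytic aldolase, was at 12.3 and 13.8 in the subset and at 5.11 and 5.18 in cluster 1 (1.32 ± 0.10). Of 78 ribosomal protein genes none was counted, with a median of 0.43. Of 21 immediate early genes, 4 were lower (Fos, Egr1, Dusp1 and Cyr61). The hemoglobin genes Hba-a1, Hba-a2 and Hbb-bs were higher by 2.50 to 2.76 on the log2 scale, and 2 cells held 86.1% of the subset's summed erythroid list. With each cell thinned to 2000 UMIs, 83 genes were higher, of which 27 were among the 53. The part of depth in these differences was not tested further.

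**Figure D3:**
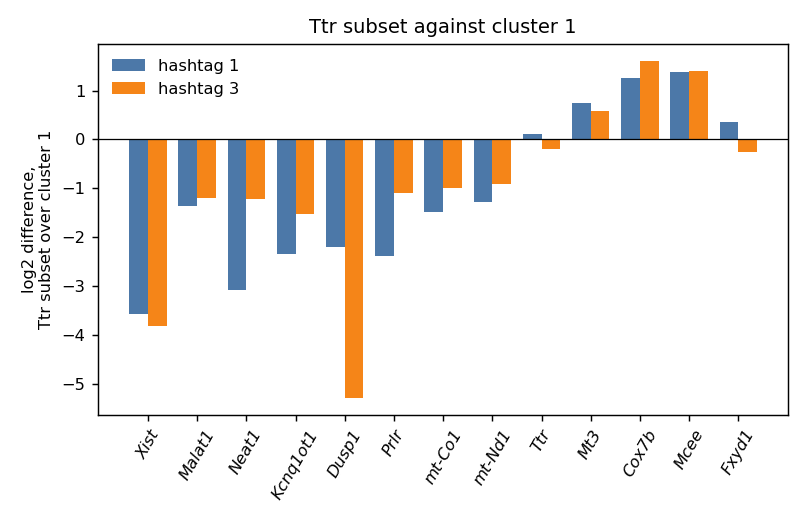
Log2 difference of mean levels, Ttr subset over cluster 1, for 13 genes in the brains with hashtag 1 and hashtag 3 (1 bar each). Xist lies at -3.57 and -3.82, Ttr lies near 0 and Cox7b and Mcee lie above 1 in both; Dusp1 is at 0 UMIs in the subset with hashtag 3, so its lowest bar depends on the pseudocount, and the genes were picked after their values were seen.

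The Aldoc subset had the highest summed astrocyte list of the 4 subsets. All 11 listed astrocyte genes were seen, with a summed level of 25.1 per 10000, against 10.5 in the Mgp subset, 6.93 in the Esx1 subset, 0.749 in the Ttr subset and 0.988 in the cells of other clusters, and 4 of its top 10 genes against the rest of cluster 8 were on that list (Aqp4, a water channel, Aldoc, Slc1a2 and Ntsr2). Aldoc was at 5.41, 9.45, 2.76 and 9.27 in its cells with hashtags 1, 2, 3 and 4, and Slc1a2 at 3.91, 4.06, 0.441 and 4.04. Only hashtag 3, with 6 cells, was low in Slc1a2. Gfap, the intermediate filament of reactive astrocytes, was seen in 2.56% of the cells.

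Signals of other cell types were also seen in the Aldoc subset. Hemoglobin genes were 4 of its top 10 against other clusters, and 4 cells with an erythroid sum of at least 100 held 97.8% of that sum. The median cell had an erythroid sum of 6.99, the same as in cluster 8 as a whole. The summed ependymal list, with all 8 genes seen, was at 10.9 in the subset (highest cell 86.8) and 2.11 in the cells of other clusters. Lyz2, lysozyme of myeloid cells, was at 13.1 and Cd74, which chaperones MHC class II proteins, at 17.7. The CD45 tag reached 300 counts in 10 of the 39 cells (25.6%) and in 9.73% of cluster 8 as a whole. Ttr was at 1700. The part of these signals in the astrocyte levels was not tested. Beside the 4 hemoglobin genes, that top 10 held 3 listed astrocyte markers (Aldoc, Slc1a2 and S100b) and also Gpr37l1, Plpp3 and Bcan. The subset is called by its leading gene.

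The Mgp subset was led by Mgp and carried genes of the fibroblast and meningeal list, unevenly across brains. Mgp was at 75.3, 75.5, 129 and 72.8 in its cells with hashtags 1, 2, 3 and 4 and was seen in all 28, against 1.68 in the rest of cluster 8. All 9 genes of the fibroblast and meningeal list were seen, with a summed level of 40.2, against 6.91 in the cells of other clusters and 20.2 in cluster 1. By brain the sum was 46.8, 29.5, 20.4 and 82.1 with hashtags 1, 2, 3 and 4. In cluster 1 it was 20.4, 19.1, 22.8 and 18.6. With hashtag 3, which held 13 of the 28 cells, the sum was thus not above that of cluster 1. Only 1 listed gene, Col1a1, was among the top 10 against the rest of cluster 8. Dcn was at 16.3, 10.0, 5.59 and 21.9, and Col1a1, the main chain of type I collagen, averaged 3.28. Its top 10 genes also held Cldn11, a tight junction protein that is on the oligodendrocyte list, Fn1, fibronectin, and Timp1, an inhibitor of matrix metalloproteases. Gja1 (4.44) and S100b (2.75) were higher here than in the Aldoc subset (2.20 and 1.80), whereas Aldoc itself was at 0.185.

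The 28 cells were not uniform across brains. Timp1 was at 1.81, 0, 18.4 and 13.1 with hashtags 1, 2, 3 and 4, where hashtag 2 had 3 cells. Prg4, a lubricating glycoprotein, was at 0, 0, 9.43 and 4.74, and Prok2, a secreted prokineticin, at 0, 0, 4.37 and 4.01. A count of 0 in the subset's own cells allows up to 1.22 per 10000 with hashtag 1 and 3.19 with hashtag 2 (3 UMIs). Timp1, Prg4 and Prok2 were thus seen with hashtags 3 and 4, and with hashtag 1 the levels were lower, while the limit for hashtag 2 is near the Prok2 and Prg4 levels of hashtag 4 and shows no clear difference for them. Acta2, smooth muscle actin, had the other pattern, at 14.9, 36.0, 0 and 0.966, where 0 with hashtag 3 allows up to 0.491. Spp1, the secreted phosphoprotein osteopontin, was at 9.97, 1.16, 5.08 and 91.2, and its highest cell reached 516.5. These sets hold 6, 3, 13 and 6 cells, so single cells move them.

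The Esx1 subset carried genes of the carcinoma list and of the astrocyte list in the same droplets. Esx1 and Rhox5, homeobox genes of the placenta and testis that are on the list of carcinoma genes, were at 3.90 and 5.38, against 2.52 and 2.93 in the cells of other clusters, and Krt8 was seen in 100% of its cells. Set beside clusters 0, 2 and 7, which are rich in the same genes, in the hashtag 4 brain (24 and 1253 cells, median UMI counts 15345 and 14864), 110 of 10116 genes were higher (1.09%) and 53 lower (0.524%). This comparison has 1 brain and no replicate check, and with a pseudocount of 1 the counts were 4 and 1. All 10 tested astrocyte genes were higher, with a median log2 difference of 2.18, against 0.03 over all genes. Slc1a2 was at 1.06 in the subset and 0.0378 in clusters 0, 2 and 7 (log2 difference 3.08), and Aldoc at 1.57 and 0.119 (2.93). Plpp3 (2.98) and Slc1a3 (2.50), a glutamate transporter, were also higher.

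Genes of the carcinoma list had like levels in both. Rhox5 was at 5.46 in the subset and 4.80 in clusters 0, 2 and 7, Esx1 at 4.19 and 3.79, and Krt8 at 2.96 and 3.02. Xist was at 1.93 in the subset and 0.544 in those clusters, a log2 difference of 1.66. Of 28 cells, 19 had at least 5 UMIs of the astrocyte list and at least 5 of Krt8, Krt18, Rhox5 and Esx1 together (67.9%), against 0.169%, 1.03% and 3.30% of clusters 0, 2 and 7. With hashtag 4 alone it was 16 of 24 (66.7%) and 10 of 1253 (0.798%). The threshold was set after these cells had been seen, and no doublet call was made. Since genes of both lists led, in different comparisons, the subset was given no cell type name. Hist1h2ap, a histone gene with near-identical copies and so uncertain in its counts, was at 14.0, against 0.962 in the rest of cluster 8.

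**Figure D4:**
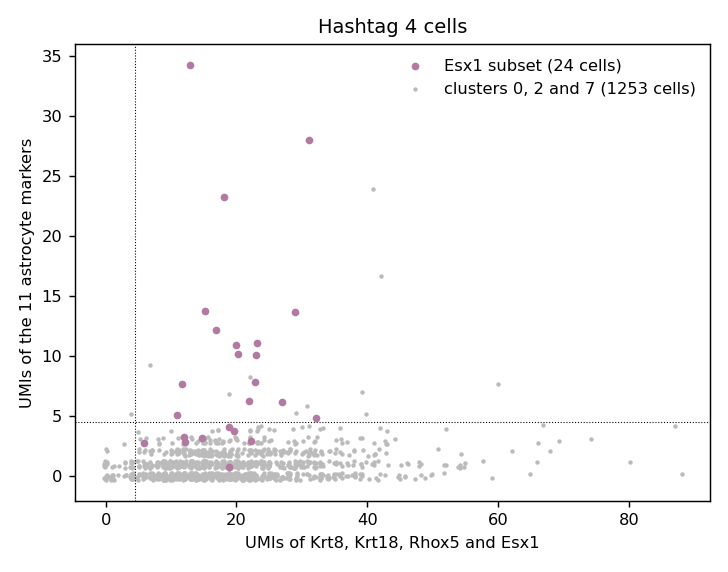
UMIs of 4 carcinoma genes (Krt8, Krt18, Rhox5, Esx1) (horizontal axis) and of the astrocyte list (vertical axis) in each cell with hashtag 4, with a little jitter, for the Esx1 subset and for clusters 0, 2 and 7; dotted lines lie just under 5 UMIs. In the upper right field lie 16 of 24 subset cells and 10 of 1253 cells of the clusters.

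Within cluster 8, Mt1 and Mt2 were highest on average in the Mgp subset and in the hashtag 3 brain. Mt2 was at 43.8 in the Mgp subset, 7.63 in the Aldoc subset, 4.97 in the Esx1 subset and 1.12 in the Ttr subset, against 3.35 in the cells of other clusters. Mt1 was at 124.7, 41.3, 17.0 and 6.29 in the same order, against 10.9. Mt3 had another order: it was highest in the Aldoc (28.6) and Ttr (25.8) subsets and low in the Mgp (2.24) and Esx1 (1.96) subsets, against 4.75 in other clusters. The Mgp subset, 15.1% of the cells, held 69.5% of the cluster's summed Mt2 and 56.8% of its Mt1. Only 95 of the 185 cells had an Mt2 UMI, and the highest 19 cells held 80.2% of the sum. Across the 11 clusters, with brains pooled, Mt2 was highest in cluster 4 (12.6) and next in cluster 8 (9.54), so it did not set cluster 8 apart from every other. By brain, cluster 8 was the highest with hashtags 2 and 3 (6.92 and 40.0, against 4.80 and 31.5 in cluster 4). With hashtags 1 and 4 it lay below cluster 4 (2.65 and 3.58, against 6.09 and 5.27).

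By brain, Mt2 in cluster 8 was at 2.65, 6.92, 40.0 and 3.58 with hashtags 1, 2, 3 and 4, against 1.70, 1.36, 5.72 and 2.75 in the other cells. On summed counts the exact Poisson 95% intervals for cluster 8 were 2.07 to 3.19, 5.04 to 9.37, 36.6 to 43.1 and 2.62 to 3.68, so hashtag 3 stood above the rest by more than counting error. Mt1 was at 15.6, 26.2, 116.9 and 14.4 in cluster 8 and 7.39, 6.99, 16.4 and 9.28 in the other cells. The brains also differed within a subset: in the Mgp subset Mt2 was at 5.61, 1.16, 85.6 and 12.9. In the 13 hashtag 3 cells of that subset the median was 53.9 and the range 5.91 to 342.9. In the Aldoc subset Mt2 was at 7.67, 13.9, 5.55 and 2.12, so above the Mgp subset with hashtags 1 and 2. Mt1 was also higher in the Aldoc subset in those brains, at 44.9 and 45.7, against 31.3 and 15.6. The Mgp subset held only 6 and 3 cells there. Counting brains with at least 10 cells, hashtag 3 was the highest in 9 of 11 clusters for Mt1 and for Mt2, cluster 8 included. For Mt3 it was the highest in 3 of 11. In clusters 7 and 10 only hashtags 3 and 4 had enough cells, and both clusters are among the 3 for Mt3. Mt3 in the 9 and 6 cells of cluster 7 with hashtags 1 and 2 was 1.88 and 6.33, against 0.968 with hashtag 3.

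**Figure D5:**
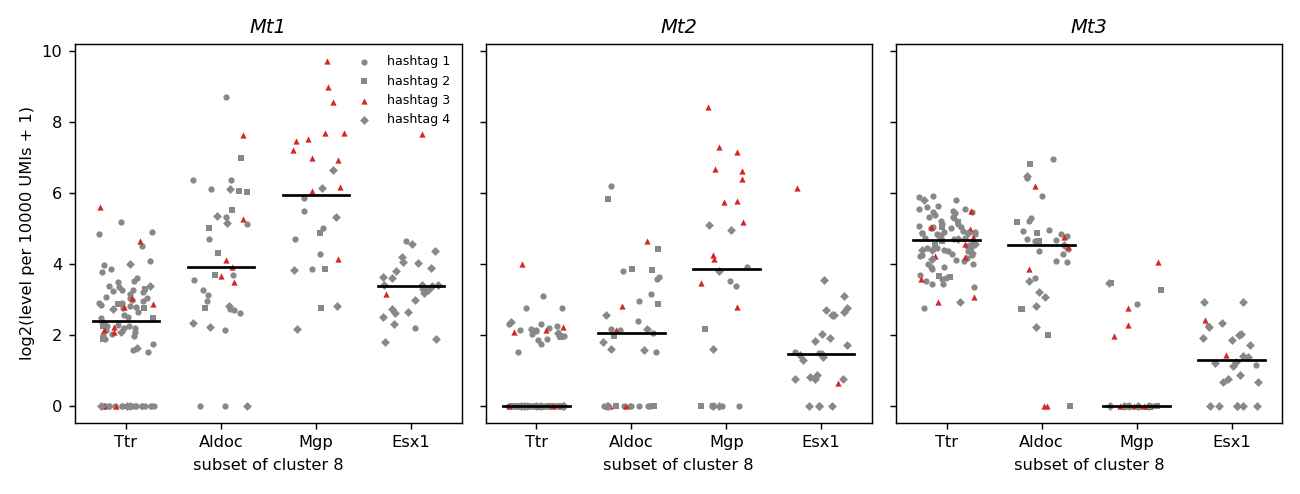
Mt1, Mt2 and Mt3 in each cell of cluster 8 (log2 of UMIs per 10000 plus 1, points spread sideways), by subset, with hashtag 3 cells as red triangles and the median as a bar. The highest Mt1 and Mt2 values are hashtag 3 cells of the Mgp subset, up to 834.3 and 342.9 UMIs per 10000, while Mt3 is high in the Ttr and Aldoc subsets.

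Over the 185 cells, which share 1 pool and differ in depth, Spearman's rho between Mt1 and Mt2 was 0.60, and within the Mgp subset 0.916. Between Mt1 and Mt3 it was -0.278. Of 2208 genes, the ones closest to Mt2 after Mt1 were Gja1 (0.55), S100b (0.475), Cpe (0.44), a carboxypeptidase, and Prnp (0.43), the prion protein.

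The largest differences between brains inside cluster 8, over brains with at least 20 of its cells, were those of hemoglobin genes, whose near-identical copies make single values uncertain. Hba-a2 was at 31.5, 39.4, 1.06 and 0.344 with hashtags 1, 2, 3 and 4, and Hbb-bs at 77.4, 64.9, 2.34 and 1.55. Hbb-bs was at 13.1, 18.7, 5.62 and 3.16 in the other cells. A few cells carried these means: 4 cluster 8 cells with hashtag 1 and 2 with hashtag 2 had an erythroid sum of at least 100 and together held 92.6% of the sum of the whole cluster, and none of its cells with hashtag 3 or 4 reached it. In the other cells 31 of 4483 held 75.9%. The median cell of cluster 8 had 2.70, 2.84, 1.67 and 1.46 of Hbb-bs with hashtags 1, 2, 3 and 4, so the median cells differed far less than the means. Prg4, Hist1h2ap, Timp1, Prok2, Mmp3 and Nov completed the list of 10 with Hbb-bt and Hba-a1.

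The antibody tags were low in most cells. The median CD45 tag count was 36 in cluster 8, against 49 in the other cells and 7090 in the immune cluster 3, and 18 of 185 cells (9.73%) reached 300, against 19.9% of the other cells. By the mean of log2(count + 1), CD45, CD11b, CD86 and CD4 tags were lower in cluster 8 than in the other cells in 4 of 4 brains, with mean log2 differences of -1.27 ± 0.91, -1.28 ± 0.72, -0.77 ± 0.54 and -0.64 ± 0.52 (SD, n = 4). The exact two-sided sign-flip permutation test gave p = 0.13 for each, the smallest that 4 brains allow, and 0.1875 after Benjamini-Hochberg adjustment over 6 tags. CD3e (-0.30, p = 0.375 in the exact test) and CD25 (-0.47, p = 0.25 in the exact test) were lower in 3 of 4 brains. Medians went the other way in some brains. With hashtag 3 the median count in cluster 8 and the other cells was 54 and 49 for CD45, 55 and 45 for CD11b and 11 and 10 for CD86, and with hashtag 4 it was 10.5 and 10 for CD86. Whether the authors used the tags for clustering is not stated. As a share of a cell's 6 tags, the difference turned round for CD45, CD86, CD3e and CD25. The other cells include clusters 3 and 6, with median CD45 counts of 7090 and 2908. Against cluster 1, with a median of 39, CD45 was lower in 2 of 4 brains (-0.27 ± 0.66, p = 0.875 in the exact test). CD11b was lower there in 3 of 4 brains, and CD86 and CD4 in 4 of 4. Against cluster 9, with a median of 45, CD45 was lower in 4 of 4 brains (-0.81 ± 0.65).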

How the data were processed

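Per the labels' protocols and the series' design text, 1 pool of 4 hashtagged brains gave a cDNA, an antibody tag and a hashtag library. The submitters' processing notes list Cell Ranger 2.1 and Seurat 2.3.4, with mm10 as the build and no roles. The deposited expression values are natural log values of 1 plus UMIs per 10000, since a cell's unlogged total is 9999.997 to 10000.003 over 17551 genes. The deposited cell table gives counts of UMIs, tags and hashtags, the mitochondrial fraction and the hashtag class, all made by the authors. Its deposited p-value and q-value of the hashtag assignment were not used. In 100% of cells the class is the hashtag with the highest count, and 0 barcodes are repeated. UMI counts were recovered from the deposited values and totals: 99.8% of nonzero values came out whole within 0.01, and a cell's sum missed its deposited total by at most 10 UMIs.

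The tools were Python 3.11.15, scanpy 1.11.5, igraph 0.11.9, numpy 2.4.6, scipy 1.17.1 and pandas 2.3.3. Levels were averaged over the cells of a hashtag class; classes with at least 10 cells of both sets and genes seen in at least 5% of cells of either set entered, and log2 differences used a pseudocount of 0.1 per 10000. Where a set is at 0 in a brain, such a difference depends on that pseudocount. Subsets came from Leiden clustering (resolution 0.5, 10 principal components, 10 neighbours, 1000 variable genes). No cell was removed and no doublet call was made. The simulated check of cluster 8 against the other cells ran on 9086 genes and recovered 96% of genes raised 4-fold and 79% of those lowered 4-fold. It drew Poisson counts from a common profile for all cells and used a sample of the other cells. The changed genes lay above a floor in level and changed alike in every cluster 8 cell. The real cluster holds unlike subsets, so these rates do not carry over to genes of low level or seen in few cells. There were 0 unused sample columns.

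Named genes were the 25 largest increases and 10 largest decreases against the other cells (seen in at least 10% of cells), the 10 largest each way against clusters 9 and 1, the listed markers and pathway genes, the 10 genes varying most between brains, the 10 closest to Mt2 and the 10 most abundant; the text prints part of these. The members and all lists were chosen with earlier results of these data known. Chosen after seeing the values were the subset names, the comparisons of the Ttr subset with cluster 1 and of the Esx1 subset with clusters 0, 2 and 7, the thresholds of 5 UMIs, 300 CD45 counts and an erythroid sum of 100, and the genes drawn in the figures. Alternatives covered the pseudocount, low-value filter, summed counts, hashtag purity, mitochondrial share, weighting, thinning, clustering resolution and leaving out a brain.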

Additional observations from a re-analysis of the deposited data

Results flagged for a closer look

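Of 28 sets of 4 brain values in cluster 8 that were checked, 5 had a brain far from the other 3 by Dixon's ratio at the 95% level. For independent sets with a normal spread, chance gives about 1 in 20. These sets share cells and related genes, so the count of 5 cannot be read against that rate. The median UMI count was 10276 with hashtag 4, against 3142, 3438 and 3449 with hashtags 1, 2 and 3. Rhox5 was at 3.35 per 10000 with hashtag 4, against 0.819, 1.20 and 0.930. Mt1 was at 116.9 with hashtag 3, against 15.6, 26.2 and 14.4 with hashtags 1, 2 and 4, and Mt2 at 40.0, against 2.65, 6.92 and 3.58. The Ttr subset was 7.70% of cells with hashtag 1, against 1.46%, 0.722% and 0.444% with hashtags 2, 3 and 4. The Esx1 subset was 52.2% of cluster 8 with hashtag 4, and the Mgp subset 41.9% with hashtag 3; the part of this makeup in the values was not tested.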

How the results depend on the processing

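No paired analysis was possible because the 3 libraries, which are the groups of the labels, share only replicate number 1; cluster 8 and the cells it was set against were compared within brains. Of 451 recomputed differences of 41 named genes against the other cells, 409 moved by less than the SD over brains and 42 by more. The sign changed in 2: without hashtag 3, Krt8 went to 0.12, against -0.31 with all brains, and Rhox5 to 0.16, against -0.34; neither gene was counted as higher or lower. The counts of genes against the other cells (37 higher, 17 lower) became 3 and 2 with a pseudocount of 1 and 76 and 44 with hashtag purity of at least 80%, where 3 brains were left. The lower count was 0 with summed counts, 26 with at most 10% mitochondrial UMIs, 56 with clusters weighted equally, and 43 without the Esx1 subset, an alternative added after seeing the data. Leaving out a brain gave 46 to 81 higher and 26 to 81 lower. Since a gene must pass in every brain, the fold rule is easier to pass with fewer brains. The 5% filter is taken over the brains that are left, so it can also remove a gene. Against cluster 9 (33 and 62) the counts were 4 and 11 with pseudocount 1, 246 and 155 with pure hashtags in 2 brains, 31 lower with summed counts, and 52 to 73 and 76 to 149 without a brain. Against cluster 1 (54 and 79) they were 6 and 11, 95 and 147, and 65 to 156 and 115 to 138. For the Ttr subset (53 and 814) they were 6 and 23 with pseudocount 1, 579 and 2688 with pure hashtags in 1 brain, 83 higher when thinned, and 179 to 1321 and 1467 to 3232 with 1 brain left. For the Esx1 subset (110 and 53) they were 4 and 1 with pseudocount 1, and 82 lower with pure hashtags. The hashtag 1 share of 10.8% was 7.79% with pure hashtags and 14.1% with at most 10% mitochondrial UMIs. Mt2 with hashtag 1 was 3.41 when thinned, with hashtag 2 12.7 and with hashtag 3 59.2 with pure hashtags, and with hashtag 4 4.77 with pure hashtags and 4.35 when thinned. As a share of the 6 tags, CD45 differed by 0.107, CD86 by 0.484, CD3e by 0.0952 and CD25 by 0.559 percentage points, the opposite sign to the main values. Without a brain the tag differences ran from -1.50 to -0.83 for CD45, -1.44 to -0.93 for CD11b, -0.96 to -0.55 for CD86, -0.43 to -0.18 for CD3e, -0.82 to -0.46 for CD4 and -0.64 to -0.38 for CD25. At resolution 1 there were 7 subsets, with the Esx1 subset whole. The cause of these shifts, beyond the number of brains, was not tested. Shallow cells limit genes of low level: 3 UMIs in the hashtag 2 cells correspond to 0.485 per 10000.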

Other observations

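At a clustering resolution of 1, a group of 17 cells came apart that drew 12 from the Aldoc subset and 5 from the Mgp subset. Its leading genes included Lum, a collagen-binding proteoglycan, Cp, the copper-carrying ferroxidase ceruloplasmin, and Mfap4, a microfibril protein. Lum averaged 5.16 per 10000 in these cells and Dcn 11.1, while Aldoc was at 0.861 and Mgp at 12.3. The cells came 11, 3, 2 and 1 from the brains with hashtags 1, 2, 3 and 4.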
